A study of Homo sapiens with 6 samples.

Results

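NEAT1, MALAT1, TUG1, KCNQ1OT1, MIAT, PVT1 and MIR17HG are 7 noncoding RNA genes followed here in JJN3 cells given the kinase inhibitor WNK463. They were named as a set of nuclear noncoding RNAs with the microRNA host MIR17HG, and were chosen with earlier results of these libraries known. All 7 were found by symbol among the 60728 genes of the count table, and 6 passed the filter on low counts; KCNQ1OT1 did not. Because the earlier results that guided the choice came from these libraries, the values of the 7 genes are a description; calls are given only beside the share of all genes called, and nothing is read from them.

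Long noncoding RNAs are transcripts that are not translated and act, where a function is known, as RNA. NEAT1 is the scaffold on which paraspeckles assemble, nuclear bodies that hold RNA-binding proteins and edited RNAs. MALAT1 collects in nuclear speckles, where splicing factors are stored, and both RNAs are among the most abundant noncoding transcripts of many cell types. TUG1 and MIAT are spliced or partly spliced RNAs found in the nucleus, PVT1 lies beside the MYC gene, and KCNQ1OT1 is an antisense RNA that silences an imprinted domain on the paternal chromosome. MIR17HG is the primary transcript from which the microRNAs of the miR-17-92 cluster are cut, and it is a known target of MYC.

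JJN3 is a human multiple myeloma line, labelled wild type, and every library comes from this 1 line. WNK463 blocks the catalytic activity of WNK kinases, regulators of ion transport through cation-chloride cotransporters. The groups were JJN3 with the vehicle DMSO, JJN3 with WNK463 for 2 h and JJN3 with WNK463 for 6 h, with 2 libraries each. The dose is 5 µM in the sample protocol but 1 µM in the series design, and the sources do not settle which was used. The vehicle libraries are labelled as control with no collection time, so treatment and time in culture cannot be told apart.

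Fragments assigned to genes numbered between 18013790 and 24002291 per library. A count of 3 equalled 0.128 to 0.166 CPM, a floor that covers counting error only. In CPM, a gene's count is scaled to the fragments of tested genes in its library, adjusted by the library's TMM factor. The 2 libraries of a group differed by more than sampling noise, with a chi-square per degree of freedom of 8.41 in DMSO, 4.15 at 2 h and 3.57 at 6 h. Nothing in the labels says that the 2 came from separate cultures, so a p-value here reflects the spread between libraries, which may be technical. Plasma cell markers summed to 1820 and 1909 CPM in DMSO, 1864 and 1903 CPM at 2 h and 1791 and 1846 CPM at 6 h. The 5 epithelial markers summed to 102 CPM in both DMSO libraries, 126 and 129.7 CPM at 2 h and 119 and 126 CPM at 6 h. The 5 myeloid markers summed to 1.04 to 1.72 CPM in DMSO, 1.42 to 1.49 CPM at 2 h and 1.58 to 1.91 CPM at 6 h. The 4 T cell markers summed to 0.111 to 0.425 CPM in DMSO, 0.219 to 0.598 CPM at 2 h and 0.0509 to 0.155 CPM at 6 h, with CD3D and CD3G at 0 in every library. The 4 erythroid markers summed to 0.142 to 0.166 CPM in DMSO, 0.726 to 0.765 CPM at 2 h and 0 to 0.305 CPM at 6 h, with HBB at 0 in every library. Most of the erythroid sum at 2 h was HBA1 (0.746 CPM), which was called lower for 6 h over 2 h. The part of these markers in the results was not tested. In bulk RNA, fewer cells of a type and less RNA per cell cannot be told apart.

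NEAT1 stood far lower after 2 h of WNK463 and was partly back at 6 h. The gene (ENSG00000245532.9) covers chromosome 11 from 65422774 to 65445540 on hg38, on the plus strand. It gave 449.7 and 403 CPM in DMSO, 110.4 and 103 CPM at 2 h, and 286 and 274 CPM at 6 h. The 3 groups did not overlap: both 2 h libraries were lowest, both DMSO libraries highest, and the 6 h libraries lay between them. The mean was 107 ± 4.87 CPM at 2 h, against 426 ± 33.0 CPM in DMSO (SD, n = 2 each), or 25.1% of the vehicle level. At 6 h the mean was 279.6 ± 8.41 CPM, which is 65.6% of that level. The log2 change was -2.00 ± 0.0675 (SE) for 2 h over DMSO and -0.61 ± 0.0642 for 6 h over DMSO. The step of 6 h over 2 h was 1.39 ± 0.0670. NEAT1 ranked 93rd from the lowest log2 change of 15548 tested genes at 2 h, and 2032nd at 6 h.

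NEAT1 is made as a short polyadenylated RNA and as a long form that builds the paraspeckle, and both begin at the same start. The table has 1 count for the whole gene, with 22767 exonic bases, so the forms cannot be told apart. Of the exonic bases of NEAT1, 2.13% are shared with other annotated genes, and a fragment over 2 genes was left out of the counts.

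**Figure D1:**
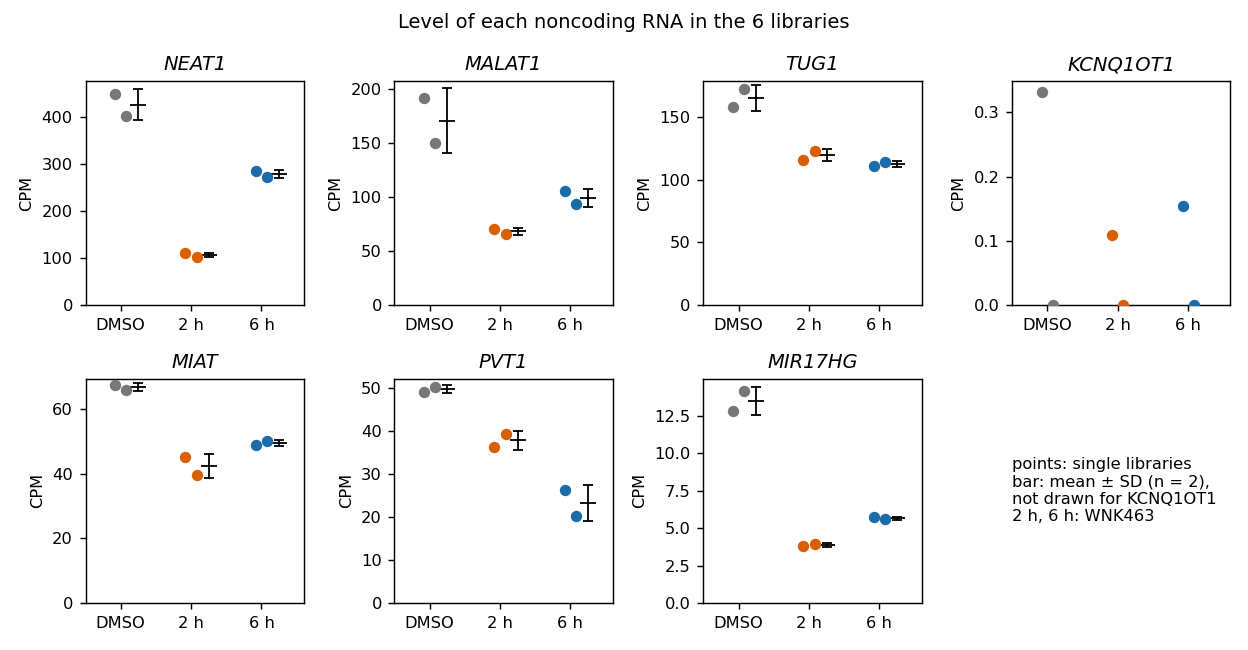
Level of each of the 7 noncoding RNAs in CPM (vertical axes, each starting at 0) in the DMSO, 2 h and 6 h libraries. Points are single libraries and bars are means ± SD of 2 libraries, not drawn for KCNQ1OT1, which had a count in the first library of each group only. NEAT1 sits at 110.4 and 103 CPM at 2 h, below 286 and 274 CPM at 6 h and 449.7 and 403 CPM in DMSO.

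MALAT1 had the same order of groups as NEAT1, over a narrower range. It lies 52148 bases beyond NEAT1 on the same strand, from 65497688 to 65506516 (ENSG00000251562.8). MALAT1 gave 192 and 149.6 CPM in DMSO, 70.7 and 66.2 CPM at 2 h, and 105 and 93.2 CPM at 6 h. No library of one group reached the range of another, though the DMSO libraries differed most between themselves. The mean of MALAT1 was 68.5 ± 3.20 CPM at 2 h, against 171 ± 29.8 CPM in DMSO, or 40.1%, with a log2 change of -1.32 ± 0.0887. At 6 h its mean was 99.3 ± 8.55 CPM, or 58.2% of DMSO, with a log2 change of -0.78 ± 0.0869. The 6 h level of MALAT1 exceeded that at 2 h by a log2 change of 0.54 ± 0.0894.

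The ratio of NEAT1 to MALAT1 counts within a library does not depend on how libraries are scaled. It was 2.35 and 2.69 in DMSO, 1.56 and 1.56 at 2 h, and 2.71 and 2.94 at 6 h. Both 2 h libraries thus held less NEAT1 for each MALAT1 fragment than any other library. Both 6 h libraries held the most, but the lower of them (2.71) was barely above the higher DMSO library (2.69). With 2 libraries against 2, this ratio was not tested, since the smallest p an exact two-sided permutation test of 2 against 2 can give is 0.333.

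The MALAT1 promoter is shown because it holds several GC boxes, as does that of MIR17HG further on. RefSeq gives it on GRCh38.p14 at chr11:65497488-65497787, plus strand, a window of 300 bases around the start. It holds 5 copies of the GC box GGGCGG, counted on both strands with overlapping matches kept, and these are in capitals; 73.7% of its bases are G or C.
MALAT1 promoter: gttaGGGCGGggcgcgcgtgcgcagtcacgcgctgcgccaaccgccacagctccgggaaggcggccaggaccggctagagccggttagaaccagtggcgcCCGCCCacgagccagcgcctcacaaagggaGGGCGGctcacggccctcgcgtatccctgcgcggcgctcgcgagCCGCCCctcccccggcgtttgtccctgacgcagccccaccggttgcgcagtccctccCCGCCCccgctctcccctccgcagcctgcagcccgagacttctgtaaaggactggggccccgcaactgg
A GC box occurs in 45.0% of the 35116 promoters of the same length in that table. The MALAT1 window does not hold the E-box CACGTG, which 7.26% of all promoters hold on either strand. It also lacks the CCAAT box, spelled as its name, which occurs in 34.6% of promoters. The cyclic AMP response element TGACGTCA, found in 1.85% of promoters, is not in it. Nor is the TATA box in the letters TATAAA, found in 11.5%. The TUG1 promoter holds 4 GC boxes, 1 E-box and 2 CCAAT boxes, and that of MIAT holds none of the 5 motifs.

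TUG1 and MIAT were lower after WNK463 at both times, and neither was called between 6 h and 2 h. TUG1 (ENSG00000253352.9), an RNA first described in retinal development in mice, runs from 30969245 to 30979395 on chromosome 22. It gave 158 and 172 CPM in DMSO, 116 and 123 CPM at 2 h, and 111 and 114 CPM at 6 h. Its DMSO libraries lay above all treated libraries, while the 2 h and 6 h libraries were separated by a narrow gap. The mean of TUG1 was 119.5 ± 4.94 CPM at 2 h, against 165 ± 10.1 CPM in DMSO, and 113 ± 2.26 CPM at 6 h, or 72.4% and 68.2% of DMSO at 2 h and 6 h. The log2 changes of TUG1 were -0.47 ± 0.0738 at 2 h and -0.55 ± 0.0741 at 6 h, and -0.09 ± 0.0746 for 6 h over 2 h.

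MIAT (ENSG00000225783.8), a noncoding RNA named for its link with myocardial infarction, runs from 26646411 to 26676475 on chromosome 22. MIAT gave 67.6 and 66.0 CPM in DMSO, 45.0 and 39.7 CPM at 2 h, and 48.8 and 50.2 CPM at 6 h. All treated libraries were below both DMSO libraries, and the 6 h libraries were both a little above those at 2 h. Its mean was 42.4 ± 3.78 CPM at 2 h, against 66.8 ± 1.18 CPM in DMSO, and 49.5 ± 1.01 CPM at 6 h, or 63.4% and 74.1% of DMSO at 2 h and 6 h. The log2 changes of MIAT were -0.66 ± 0.0985 at 2 h, -0.43 ± 0.0978 at 6 h and 0.23 ± 0.0997 for 6 h over 2 h. Other genes share 21.9% of the exonic bases of MIAT and 14.4% of those of TUG1, 15.4% and 7.98% on the opposite strand, and the counting ignored strand.

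PVT1 moved in another order, lower at 2 h and lower again at 6 h. The gene (ENSG00000249859.11) spans chromosome 8 from 127794526 to 128187101 and begins 51575 bases beyond the end of MYC. PVT1 gave 49.1 and 50.4 CPM in DMSO, 36.2 and 39.4 CPM at 2 h, and 26.3 and 20.4 CPM at 6 h. The 3 groups did not overlap, and the 6 h libraries were the lowest. The mean of PVT1 was 37.8 ± 2.26 CPM at 2 h, against 49.7 ± 0.912 CPM in DMSO, and 23.3 ± 4.19 CPM at 6 h, or 76.1% and 46.9% of DMSO at 2 h and 6 h. Its log2 changes were -0.39 ± 0.114 at 2 h, -1.09 ± 0.118 at 6 h and -0.70 ± 0.119 for 6 h over 2 h. Without the first 2 h library the change of PVT1 at 2 h was -0.33 with an adjusted p of 0.135 (edgeR), so that call rests on it.

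MYC, the transcription factor gene next to PVT1, fell as well. It averaged 535 ± 1.91 CPM at 2 h and 463 ± 1.50 CPM at 6 h, against 854 ± 42.2 CPM in DMSO (SD, n = 2 each). Its log2 change was -0.67 ± 0.0545 at 2 h (edgeR quasi-likelihood test, adjusted p = 1.88e-13) and -0.88 ± 0.0547 at 6 h (adjusted p = 9.57e-18). For 6 h over 2 h the log2 change was -0.21 ± 0.0546 in MYC and -0.70 ± 0.119 in PVT1, side by side and not compared by a test.

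MIR17HG had the 132nd lowest log2 change of the 15548 tested genes at 2 h and the 462nd lowest at 6 h. The gene (ENSG00000215417.13) runs from 91347820 to 91354579 on chromosome 13 and carries 6 microRNA genes in its span. Their mature sequences, from RefSeq on GRCh38.p14, are shown because the products of this host act through their seeds; bases 2 to 8 are in capitals, and the lines are grouped by seed.
hsa-miR-17-5p: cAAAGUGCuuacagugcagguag
hsa-miR-20a-5p: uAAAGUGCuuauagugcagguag
hsa-miR-18a-5p: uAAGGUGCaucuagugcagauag
hsa-miR-19a-3p: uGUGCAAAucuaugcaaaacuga
hsa-miR-19b-3p: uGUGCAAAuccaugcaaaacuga
hsa-miR-92a-3p: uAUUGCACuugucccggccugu
The 6 microRNAs have 4 seeds. AAAGUGC is shared by miR-17-5p and miR-20a-5p, GUGCAAA by miR-19a-3p and miR-19b-3p, while AAGGUGC and AUUGCAC belong to 1 microRNA each. The mature microRNAs were not measured here. The 6 microRNA genes had 0 counts over the 6 libraries. They lie within the host, and a fragment of the host transcript that overlapped one of them was not counted for either gene.

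MIR17HG gave 12.9 and 14.2 CPM in DMSO, 3.77 and 3.97 CPM at 2 h, and 5.72 and 5.60 CPM at 6 h. These stand for counts of 232 and 300 in DMSO, 69 and 93 at 2 h, and 111 and 110 at 6 h. No groups overlapped, and the 2 libraries of each treated group were close together. The mean of MIR17HG was 3.87 ± 0.140 CPM at 2 h, against 13.5 ± 0.936 CPM in DMSO, or 28.7%, with a log2 change of -1.80 ± 0.215. At 6 h it was 5.66 ± 0.0863 CPM, or 41.9% of DMSO, with a log2 change of -1.26 ± 0.208. The log2 change of 6 h over 2 h was 0.54 ± 0.226, near that of MALAT1 but with a larger SE.

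The RefSeq promoter of MIR17HG, at chr13:91347437-91347736 on the plus strand of GRCh38.p14, starts transcription 133 bases before the start in the count table. It holds 6 GC boxes, in capitals, of which 2 overlap, and 1 CCAAT box; no E-box in the letters CACGTG lies in this window.
MIR17HG promoter: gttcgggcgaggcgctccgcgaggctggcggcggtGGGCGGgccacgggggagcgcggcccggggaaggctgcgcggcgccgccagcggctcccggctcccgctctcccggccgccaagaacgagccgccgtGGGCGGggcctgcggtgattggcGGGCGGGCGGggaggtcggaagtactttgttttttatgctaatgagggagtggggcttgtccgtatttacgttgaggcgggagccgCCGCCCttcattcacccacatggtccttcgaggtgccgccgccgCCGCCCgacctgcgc
Its G and C content is 73%. These matches are a description of the letters and not of binding.

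KCNQ1OT1 was at the floor of detection. The gene (ENSG00000269821.1, chromosome 11 from 2608328 to 2699994, minus strand) had 6 and 0 counts in DMSO, 2 and 0 at 2 h, and 3 and 0 at 6 h. All its counts came from the first library of each group. A count of 0 in the second libraries allows up to 0.142 CPM in DMSO, 0.128 CPM at 2 h and 0.153 CPM at 6 h. It was not tested and no fold is given; a difference was not detectable at this depth. KCNQ1, the potassium channel gene that contains it on the other strand, averaged 9.69 ± 2.18 CPM at 2 h and 12.2 ± 1.63 CPM at 6 h, against 11.0 ± 1.31 CPM in DMSO, and was not called at either time.

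Set side by side, all 6 tested genes were called lower at both times. Of all 15548 tested genes, 8.32% were called lower at 2 h and 18.6% at 6 h (17.0% and 36.6% in either direction); the members were picked on such results, and nothing is read from this count. A call is an adjusted p under 0.05 in edgeR's quasi-likelihood test with Benjamini-Hochberg adjustment over the tested genes. For 6 h over 2 h, NEAT1 and MALAT1 were called higher, PVT1 lower, and TUG1, MIAT and MIR17HG were not called, beside 11.1% of all genes called higher, 13.1% lower and 24.3% either way. The median log2 change of the 6 genes was -0.99 at 2 h and -0.69 at 6 h, and that of all tested genes was -0.0049 and -0.0050. All of these comparisons at 2 h and 6 h share the DMSO libraries.

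**Figure D2:**
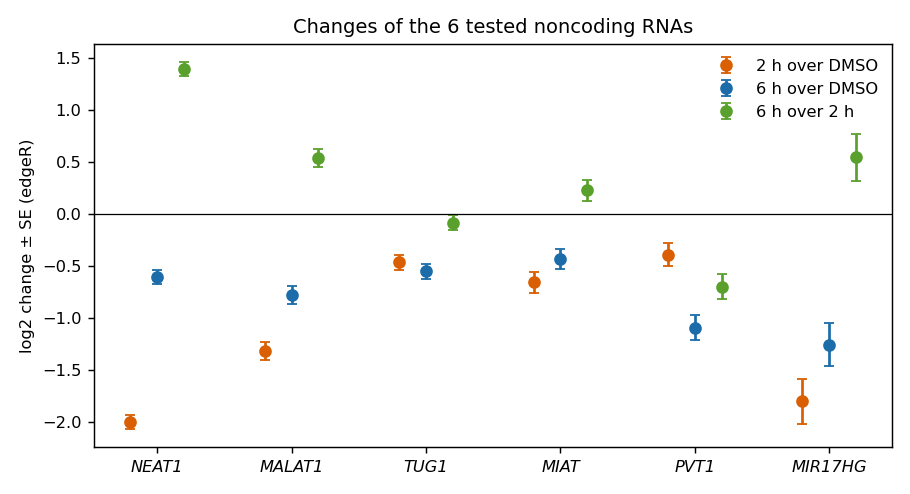
Log2 changes ± SE from edgeR (vertical axis) of the 6 tested noncoding RNAs for 2 h over DMSO, 6 h over DMSO and 6 h over 2 h. NEAT1 (1.39) and MALAT1 (0.54) lie above 0 for 6 h over 2 h, while PVT1 lies at -0.70.

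Levels can be set between genes only per length, here all annotated exonic bases of a gene. Which forms of a gene gave the fragments is not known, as for NEAT1, so the order below holds for that length only. In CPM per kilobase of exonic length, the DMSO libraries had 19.3 ± 3.37 for MALAT1, 18.7 ± 1.45 for NEAT1 and 16.3 ± 0.999 for TUG1. MIAT had 4.80 ± 0.0851, MIR17HG 3.58 ± 0.248 and PVT1 1.99 ± 0.0366 CPM per kilobase. MALAT1 and NEAT1 did not differ beyond their spread there, nor MALAT1 and TUG1. At 2 h the order was TUG1 with 11.8 ± 0.487, MALAT1 with 7.76 ± 0.362, NEAT1 with 4.70 ± 0.214 and MIAT with 3.05 ± 0.272 CPM per kilobase. PVT1 with 1.52 ± 0.0907 stood above MIR17HG with 1.03 ± 0.0372 CPM per kilobase at that time. At 6 h NEAT1 had 12.3 ± 0.370, MALAT1 11.2 ± 0.969 and TUG1 11.1 ± 0.223 CPM per kilobase, the last pair within their spread. MIAT had 3.56 ± 0.0726, MIR17HG 1.50 ± 0.0229 and PVT1 0.934 ± 0.168 CPM per kilobase at 6 h. TUG1 thus led at 2 h, whereas NEAT1 and MALAT1 stood above it in both other groups by their means.

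The 7 genes together took 8.85% and 8.23% of the fragments assigned to long noncoding RNA types in DMSO. The share was 4.33% and 4.27% at 2 h, and 6.11% and 5.85% at 6 h. NEAT1 alone took 4.28% and 3.88% of these fragments in DMSO, 1.25% and 1.18% at 2 h, and 2.99% and 2.87% at 6 h. The members' share of all assigned fragments was 0.0931% and 0.0850% in DMSO, 0.0374% and 0.0367% at 2 h, and 0.0597% and 0.0569% at 6 h.

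The members can be set beside the other long noncoding RNAs. Of the 1989 tested genes of long noncoding types without the members, 56 (2.82%) were called higher at 2 h and 117 (5.88%) lower. At 6 h the counts were 140 (7.04%) higher and 179 (9%) lower. The shares of all tested genes were larger, 8.68% higher and 8.32% lower at 2 h, and 18.0% and 18.6% at 6 h. The 2 sets differ in level, and a change is harder to call at low counts. MIR17HG, with a mean of 7.68 CPM over all libraries, ranked 193rd by CPM among the 1995 genes of these types but 9549th among all 15548. The shares therefore do not compare the size of the changes, and the part of level in them was not tested. The median log2 change of the 1989 genes was -0.15 at 2 h and -0.06 at 6 h, and 0.11 for 6 h over 2 h. Among all 1995 tested genes of these types, NEAT1 had the 45th lowest log2 change at 2 h, MIR17HG the 67th and MALAT1 the 160th.

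**Figure D3:**
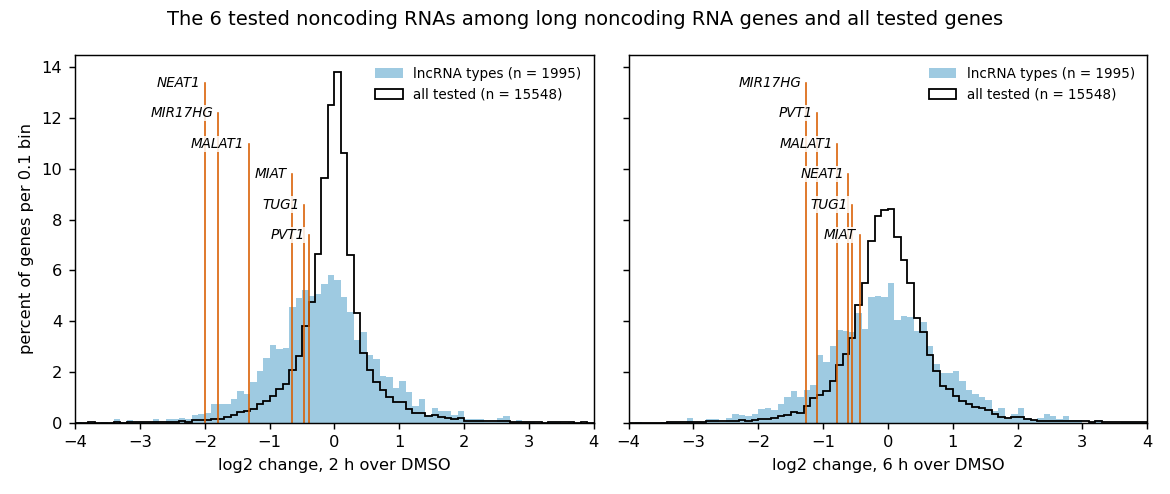
Distribution of log2 changes (horizontal axis) for 1995 tested long noncoding RNA genes (blue) and all 15548 tested genes (black line), as percent of genes per 0.1 bin, at 2 h and at 6 h over DMSO. Orange lines mark the 6 tested noncoding RNAs, which run from -2.00 to -0.39 at 2 h and from -1.26 to -0.43 at 6 h.

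From a list of 38 further well-known long noncoding RNAs, 26 were tested. At 2 h 1 was called higher (0 without the first DMSO or the second 2 h library) and 7 lower (4 without the second DMSO library or either 2 h library), and at 6 h 4 higher (2 without the first 6 h library) and 5 lower. The list's median log2 change was -0.17 at 2 h and -0.12 at 6 h. Beside these counts, 8.68% of all tested genes were called higher and 8.32% lower at 2 h, and 18.0% and 18.6% at 6 h. SNHG1, a host of small nucleolar RNAs, fell to 153 ± 1.78 CPM at 2 h and 123 ± 0.188 CPM at 6 h, against 225 ± 6.77 CPM in DMSO. NORAD, an RNA that binds Pumilio proteins, rose to 608 ± 15.6 CPM at 6 h, against 490.2 ± 18.3 CPM in DMSO, with a log2 change of 0.31 ± 0.0555.

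Of 87 listed hosts of other microRNAs, 26 were tested. At 2 h 6 were called lower (3 without either 2 h library) and 20 were not called, and at 6 h 1 was called higher (0 without the second DMSO library or either 6 h library) and 4 lower (0 without the first DMSO library). Of all tested genes 8.32% were called lower and 8.68% higher at 2 h, and 18.6% and 18.0% at 6 h. The hosts' median log2 change was -0.25 at 2 h and 0.03 at 6 h. MIR34AHG, the host of the p53-responsive miR-34a, had 6.08 ± 0.332 CPM at 2 h and 8.16 ± 1.19 CPM at 6 h, against 12.1 ± 0.739 CPM in DMSO. Its fall at 2 h was 0.98 on the log2 scale (adjusted p = 0.000298, edgeR). At 6 h the call was lost with DESeq2 in place of edgeR, and without the first DMSO or the first 6 h library. The log2 change of MIR34AHG at 6 h ran from -0.72 to -0.42 over the alternatives.

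Genes for proteins of the paraspeckle, the body built on NEAT1, were called lower more often than higher. Of 28 tested, 1 was called higher and 8 lower at 2 h (4 without the second 2 h library), and 3 higher (1 without either 6 h library) and 17 lower at 6 h. Over all tested genes 8.68% were called higher and 8.32% lower at 2 h, and 18.0% higher and 18.6% lower at 6 h. The list's median log2 change was -0.08 at 2 h and -0.25 at 6 h. Small changes are called more readily at high counts, and SFPQ and NONO averaged 1179 and 420 CPM in DMSO. The part of level in this count, and in those of the lists below, was not tested. RBM12, an RNA-binding protein gene, had 64.2 ± 2.63 CPM at 2 h and 72.8 ± 2.72 CPM at 6 h, against 183 ± 11.2 CPM in DMSO, with log2 changes of -1.51 ± 0.0803 and -1.33 ± 0.0798. SFPQ, a core subunit that binds NEAT1, fell by 0.29 ± 0.0507 at 2 h and by 0.61 ± 0.0509 at 6 h on the log2 scale, while its partner NONO was at -0.04 at 2 h, not called, and -0.21 ± 0.0576 at 6 h. RBM7, which also belongs to the nuclear exosome's adaptors, was called higher at 2 h (0.35, lost without the first 2 h library, adjusted p = 0.375) and at 6 h (0.53 ± 0.112).

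Nuclear speckle protein genes, whose products share that body with MALAT1, followed a like count. Of 16 tested, 8 were called lower at 2 h (5 without the second 2 h library) and the other 8 were not called, and 1 higher and 12 lower at 6 h. The median log2 change was -0.16 at 2 h and -0.34 at 6 h. Among all tested genes 8.32% were called lower and 8.68% higher at 2 h, and 18.6% and 18.0% at 6 h. SRSF5, a splicing factor, fell to 73.9 ± 4.99 CPM at 2 h, against 125 ± 2.09 CPM in DMSO, a log2 change of -0.76 ± 0.0817. At 6 h it had 116 ± 10.2 CPM and was not called against DMSO (-0.11), and it rose by 0.65 for 6 h over 2 h. SRRM2, a scaffold of speckles, fell by 0.45 ± 0.0529 at 2 h and by 0.56 ± 0.0530 at 6 h. SRSF2 was at -0.14 at 2 h, not called, and fell by 0.97 ± 0.0637 at 6 h, with 35.8% of its exonic bases shared with MFSD11.

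**Figure D4:**
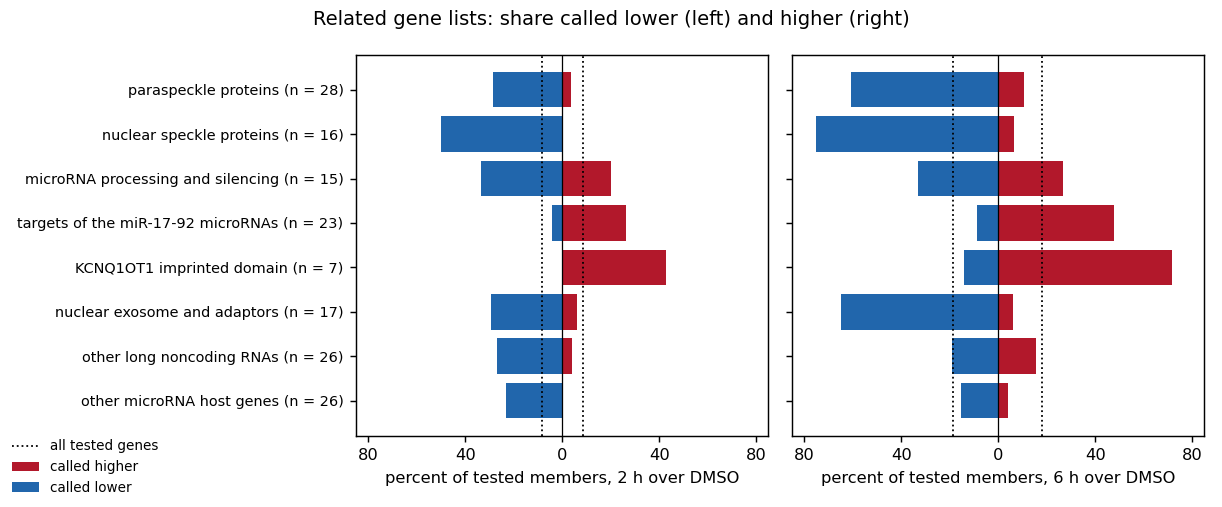
Percent of the tested genes of each related list called lower (left of 0, blue) and called higher (right of 0, red) at 2 h and 6 h over DMSO, with the same percentages of all tested genes as dotted lines (8.32% lower and 8.68% higher at 2 h, 18.6% and 18.0% at 6 h). Of the 16 nuclear speckle genes 12 were called lower at 6 h, and of the 28 paraspeckle genes 17.

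The nuclear exosome and its adaptors degrade many noncoding transcripts. Of 17 tested genes 1 was called higher and 5 lower at 2 h (3 without the second 2 h library), and 1 higher and 11 lower at 6 h. The list's median log2 change was -0.09 at 2 h and -0.45 at 6 h. Over all tested genes 8.68% were called higher and 8.32% lower at 2 h, and 18.0% and 18.6% at 6 h. EXOSC2, a cap subunit, had 62.2 ± 0.0321 CPM at 2 h and 46.0 ± 3.23 CPM at 6 h, against 83.1 ± 3.55 CPM in DMSO. ZFC3H1, of the adaptor that targets polyadenylated nuclear RNA, fell by 0.52 ± 0.0944 on the log2 scale at 2 h; at 6 h it was at 0.08, not called, and for 6 h over 2 h it rose by 0.60.

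Genes that process microRNAs such as those of MIR17HG, or act with them, moved both ways. Of 15 tested, 3 were called higher (0 without the second 2 h library) and 5 lower at 2 h, and 4 higher and 5 lower at 6 h, with medians of -0.01 and -0.08. The shares of all tested genes were 8.68% called higher and 8.32% lower at 2 h, and 18.0% and 18.6% at 6 h. The helicases DDX17 and DDX5, which assist the nuclear Microprocessor, fell by 0.51 ± 0.0541 and 0.37 ± 0.0569 at 2 h and by 0.66 ± 0.0543 and 0.55 ± 0.0571 at 6 h. At 6 h AGO1, an Argonaute protein gene, rose by 0.44 ± 0.0791, and TNRC6B, a silencing cofactor, by 0.72 ± 0.0962.

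Published targets of the miR-17-92 microRNAs were read against the shares of all tested genes, 8.68% called higher and 8.32% lower at 2 h, and 18.0% and 18.6% at 6 h. Of 23 tested targets, 6 were called higher and 1 lower at 2 h, and 11 higher and 2 lower (0 without the first 6 h library) at 6 h; the median log2 change was 0.09 and 0.22. CDKN1A, a cell cycle inhibitor, had 167 ± 0.405 CPM at 2 h and 168 ± 2.21 CPM at 6 h, against 74.9 ± 4.79 CPM in DMSO. CCND2, a D-type cyclin, had log2 changes of 0.92 ± 0.0630 at 2 h and 0.45 ± 0.0631 at 6 h. The gene called lower at 2 h was E2F2 (-0.26), a call lost without either 2 h library (largest adjusted p = 0.134, edgeR). The host transcript stood at 28.7% and 41.9% of DMSO at these times, and the mature microRNAs were not measured. A link between the host and these targets was not tested.

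In the imprinted domain of KCNQ1OT1, 7 of 9 listed genes were tested. At 2 h 3 were called higher and 4 were not called, and at 6 h 5 were called higher (3 without the second 6 h library) and 1 lower, with medians of 0.29 and 0.31. Of all tested genes 8.68% were called higher and 8.32% lower at 2 h, and 18.0% and 18.6% at 6 h. CDKN1C, a cyclin-dependent kinase inhibitor, had 29.2 ± 4.47 CPM at 2 h and 71.3 ± 1.83 CPM at 6 h, against 9.75 ± 0.625 CPM in DMSO. Its log2 changes were 1.59 ± 0.131 at 2 h (edgeR, adjusted p = 3.06e-13) and 2.87 ± 0.128 at 6 h (adjusted p = 7.46e-23). CD81, a tetraspanin gene, and PHLDA2, a growth regulator of the placenta, rose by 0.31 ± 0.0627 and 0.54 ± 0.113 at 6 h. TSSC4 was called lower at 6 h (-0.41), a call lost with DESeq2 and without the first DMSO library or either 6 h library (largest adjusted p = 0.308). KCNQ1OT1 itself was too low to compare beside them.

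Of 22 tested genes within 100 kb of the members, members left out, 2 were called higher and 4 lower at 2 h, and again 2 higher and 4 lower at 6 h. With 8.68% of all tested genes called higher and 8.32% lower at 2 h, and 18.0% and 18.6% at 6 h, these few counts are no result about the neighbours. Around NEAT1, 8 of 21 annotated genes were tested, MALAT1 among them. FRMD8, 9249 bases from NEAT1 and coding for a protein that binds the protease regulator iRhom, had 201 ± 9.27 CPM at 2 h, against 254 ± 26.6 CPM in DMSO, a log2 change of -0.34 ± 0.0693 (edgeR, adjusted p = 0.000314). At 6 h its log2 change was -0.10 ± 0.0690, not called. SLC25A45, a mitochondrial carrier gene, was called lower at 2 h (-0.79 ± 0.225), a call lost without the first 2 h library (adjusted p = 0.105).

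Around MALAT1 11 of 23 annotated genes were tested. MAP3K11, a kinase gene 91240 bases from MALAT1, rose by 0.46 ± 0.0881 on the log2 scale at 6 h. ZNRD2, 63944 bases from MALAT1, was called lower at 6 h (-0.51 ± 0.135), a call lost without the first DMSO or the second 6 h library (largest adjusted p = 0.118). FAM89B shares 52.1% of the exonic bases of ZNRD2. Beside TUG1, MORC2 begins 471 bases away on the other strand and was not called, with log2 changes of -0.04 ± 0.0889 at 2 h and -0.07 ± 0.0892 at 6 h; MORC2-AS1 shares 24% of its exonic bases. SMTN, a smooth muscle protein gene 84710 bases from TUG1, was at -0.37 ± 0.140 at 2 h, not called, and fell by 0.79 ± 0.144 at 6 h. CRYBB1, a crystallin gene 28384 bases from MIAT, was called higher at 2 h (0.32 ± 0.0984). That call was lost without the second DMSO library or either 2 h library (largest adjusted p = 0.156). MYC was the 1 tested gene of 13 annotated near PVT1, and none of the 8 annotated near MIR17HG was tested.

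**Figure D5:**
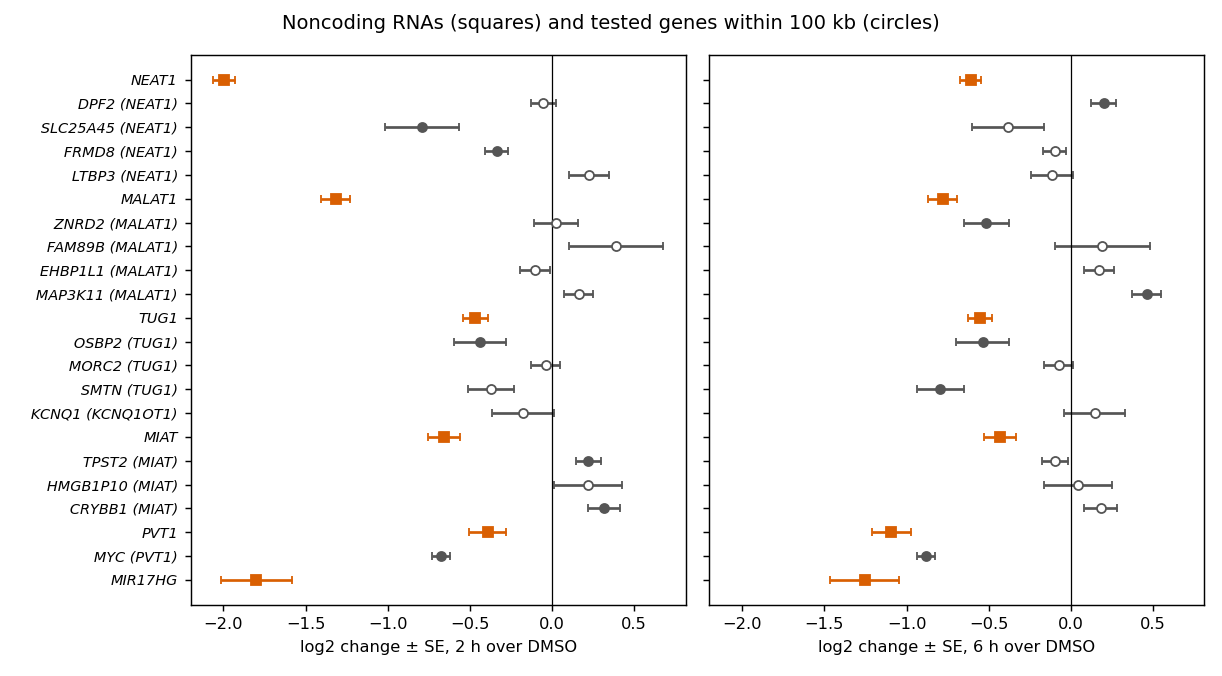
Log2 change ± SE (horizontal axis) at 2 h and 6 h over DMSO of the 6 tested noncoding RNAs (orange squares) and of tested genes within 100 kb of a member that reached 4 CPM in a group and are reported here (grey circles, filled where called, the member in brackets). At 2 h NEAT1 lies at -2.00 and FRMD8 at -0.34, while MORC2 lies at -0.04.

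The genes with the most similar course over the 6 libraries were found by the distance between log2 CPM values centred on their mean, among 10615 genes of at least 4 CPM. A small distance describes these 6 libraries and no more. For NEAT1 the nearest were GPR55, a G protein-coupled receptor gene (distance 0.76), and LPCAT1, a lysophospholipid acyltransferase gene (0.78). GPR55 had log2 changes of -1.28 at 2 h and -0.20 at 6 h. For MALAT1 the nearest was the snoRNA host SNHG20 (0.26), with -1.38 and -0.98, and for TUG1 the snoRNA host SNHG16 (0.09), with -0.55 and -0.61. MIAT was nearest to TRMT44, a tRNA methyltransferase gene (0.09), with -0.72 and -0.54. PVT1 had LINC00923 (0.18) and WNT10A, a Wnt ligand gene (0.19), nearest, the second with -0.37 at 2 h and -1.04 at 6 h. For MIR17HG they were ENSG00000268362, a gene with no symbol (0.18), and LPCAT1 again (0.22), with -1.62 and -1.01. NEAT1 was farther from its nearest gene than any other tested member was from its own.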

How the data were processed

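RNA-seq counts from 6 JJN3 libraries were analysed. The deposited values are fragment counts per gene, made per the file headers with featureCounts 2.0.0 on GENCODE 34, from read pairs with a mapping quality of at least 20; strand was ignored, and fragments with several hits or over 2 genes were not counted. Trimmomatic, STAR and hg38 are named in the submitters' processing notes, without tool versions. The sources used here do not state how RNA was selected for the libraries. Of 60728 genes, 30725 had no count; 1 record (ANK2) broken over several lines was rejoined; 0 per-sample columns were left unused. Symbols were matched for 60415 identifiers, and gene types for 58541 from GENCODE 29.

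Tests were run in R 4.3.3 with edgeR 4.0.16 (quasi-likelihood F test, TMM factors 0.977 to 1.025, filterByExpr, 15548 genes tested) with all 6 libraries fitted together and Benjamini-Hochberg adjustment; the spread of a gene came largely from all genes (42.8 prior against 3 residual degrees of freedom). CPM are counts over the fragments assigned to tested genes, with that total multiplied by the TMM factor of the library. The members and lists were chosen with earlier results of these data known. Besides the members, named genes were called genes within 100 kb, up to 4 genes per list with the smallest adjusted p or called against their list, and the nearest patterns (log2 of CPM with a pseudocount of 0.5). The following were named after their values were seen: NONO, MORC2 and KCNQ1. Some genes that these rules take in are not reported here. On simulated counts of 15011 genes for 2 h with DMSO, 20.8%, 57.1% and 100% of genes of at least 4 CPM that had been shifted by a log2 of 0.3, 0.5 and 1 were recovered, with 4 false calls among 90. Every simulated gene had the same dispersion, 0.006, near the common value fitted to these libraries, and few genes were shifted. Real genes differ in their spread and many more were called, so these rates hold for the simulation only. Alternatives were other scalings, no filter, DESeq2 1.42.0, limma 3.58.1 voom, robust dispersions, fits restricted to the groups of a comparison, a replicate block and leaving out each library. Plots were made in matplotlib 3.10.9 under Python 3.11.15.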

Additional observations from a re-analysis of the deposited data

Results flagged for a closer look

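For 3 of the noncoding RNAs the change from DMSO at 6 h stood apart from that at 2 h. They are the 3 members that edgeR's test called for 6 h over 2 h, beside 24.3% of all tested genes. Nothing more is read from these calls, since the genes were chosen with such results known. The difference between the changes at 6 h and at 2 h is the log2 change of 6 h over 2 h, as DMSO is common to both. It was 1.39 for NEAT1 and 0.54 for MALAT1, both closer to DMSO at 6 h than at 2 h. For PVT1 it was -0.70, farther from DMSO at 6 h. Both 6 h libraries lay on one side of both 2 h libraries in all 6 tested members, TUG1, MIAT and MIR17HG included. That separation therefore does not set the 3 apart.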

How the results depend on the processing

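All 15 alternatives left every tested member lower at 2 h and at 6 h than in DMSO. NEAT1 ranged between -2.07 and -1.91 at 2 h and between -0.69 and -0.53 at 6 h, and MALAT1 between -1.48 and -1.13 and between -0.95 and -0.59. Of the calls at either time only that of PVT1 at 2 h was lost, without the first 2 h library. With library size as the only scaling, 4 members were called higher for 6 h over 2 h in place of 2, MIAT and MIR17HG being added, and 61.3% of called genes were higher in place of 45.9%. At 2 h that scaling put 41.9% of calls higher in place of 51.1%. No scaling moved the median of all genes by over 0.1. Leaving out 1 library gave 1527 to 2911 genes called at 2 h (1527 without the second 2 h library), 4021 to 5600 at 6 h, and 2288 to 4661 for 6 h over 2 h (2288 and 2372 without the first and the second 6 h library). Replicate numbers are shared by the groups. The deviations of same-numbered libraries correlated at only 0.0875 (DMSO with 2 h), -0.0937 (DMSO with 6 h) and -0.0301 (2 h with 6 h). Such values show little replicate effect shared over genes, but cannot tell whether same-numbered libraries were prepared as pairs. With a replicate block, 2658, 5686 and 3807 genes were called at 2 h, at 6 h and for 6 h over 2 h, and the 6 members were called lower at both times. MIR17HG, with 69 to 300 counts, is the least precise tested member, and KCNQ1OT1 is below what this depth resolves.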
